A study of Rattus norvegicus with 12 samples.

Results

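The strain by ventilation interaction is, for each gene, the change from control to HTV ventilation in the lungs of Dahl salt-sensitive (SS) rats minus the same change in Brown Norway (BN) rats. It is formed from 4 groups, SS control, SS HTV, BN control and BN HTV, with 3 arrays in each, so that 12 of the 12 samples of the series enter it. Groups were taken from the sample labels, and no measured value was used to choose them. Each array carries its own animal number, body weights were 250 to 350 g, and the design text calls the strains parents. All lungs, those of the controls included, are described as exposed to room air. The labels do not spell out HTV or name ventilator settings, a duration or how control rats were handled. The pulmonary vessels were flushed with phosphate-buffered saline and the right lung was frozen whole, so each value is an average over every cell type of the organ. From 6 µg of total RNA, labelled cRNA was hybridised to Affymetrix rat arrays, on which a probe set is a group of short probes for 1 transcript.

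A gene that passes a test in SS rats and misses it in BN rats is not thereby shown to respond differently, and the interaction tests that difference directly. Overstretch of the lung by a ventilator is known to load alveolar epithelium and capillary endothelium, to switch on immediate-early transcription factors and then cytokines, and to draw neutrophils out of the blood, while flow-sensitive endothelial factors such as Klf2 follow shear stress. The SS rat becomes hypertensive on a salty diet, and the BN rat is the inbred normotensive strain on which the rat reference genome was built.

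Changes are given on the log2(intensity + 16) scale, where 1 is close to 2-fold for bright probe sets and understates the fold of dim ones. They were fitted in 1 limma model over the 12 arrays, ± denotes limma's moderated SE, and a gene is represented by its brightest tested probe set. Lung markers were bright on every array, with the surfactant gene Sftpc at intensities of 2920 to 4581, the club cell gene Scgb1a1 at 3071 to 4681 and the alveolar type 1 gene Ager at 2182.4 to 2761.3. The array labelled SS control 3 stood apart. Its array weight was 0.286 against 0.622 to 1.98 for the other 11, and its beta-actin signal fell off towards the 5-prime end, with a log2 ratio of 5-prime to 3-prime signal of -1.40, where SS control 1 and 2 had -0.51 and -0.23. For 36 probe sets the remaining 5 SS arrays and all BN arrays were separated by over 1.5 on the log2 scale; SS control 3 crossed the midpoint to the BN side at 13 of them, and the same count was 0 for each of the other 11 arrays. Results that rest on this array are given with and without it for the main counts, for several lists and for many, though not all, of the genes named.

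No probe set passed the interaction test. Of 18626 probe sets, 0 had an adjusted p below 0.05 (0%; limma with Benjamini-Hochberg adjustment, smallest adjusted p = 0.53), and 1547 (8.31%) had an unadjusted p below 0.05, where evenly spread p-values would give 931. By gene, 900 of 10555 (8.53%) had an unadjusted p below 0.05, 521 with the SS change above the BN change (4.94%) and 379 below it (3.59%). Of the 900, 652 changed in opposite directions in the strains (72.4%, against 35.1% of all genes, a sign pattern that a large interaction favours). The test of the mean HTV effect over both strains was passed by 193 of them (21.4%, against 15.6% of all genes), and 25 were common responses. Without SS control 3 the count past the interaction test was again 0, with 1323 probe sets at an unadjusted p below 0.05.

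The response to HTV itself was large in both strains. Its mean over the strains passed the test for 2947 probe sets (15.8%), 1320 higher and 1627 lower, and for 1646 genes, 727 higher (6.89%) and 919 lower (8.71%). In SS lungs 1501 probe sets passed (8.06%), and in BN lungs 1091 (5.86%). By gene these were 849 in SS (8.04%), with 414 higher (3.92%) and 435 lower (4.12%), and 600 in BN (5.68%), with 316 higher (2.99%) and 284 lower (2.69%). A common response, past the test in each strain with the same sign, was found for 594 probe sets (3.19%), 344 higher and 250 lower, and no probe set passed in opposite directions. These 594 were 39.6% of the SS calls and 54.4% of the BN calls. Of the 907 probe sets called in SS alone, 816 had the same sign in BN, and of the 497 called in BN alone, 456 had the same sign in SS. An interaction p below 0.05 was seen for 299 of the 907 and 154 of the 497, against 8.31% of all probe sets. Being called in 1 strain and missed in the other favours a large interaction, so these counts are no further support. Without SS control 3 the SS calls were 999, the BN calls 1463 and the common responses again 594, of which 484 were shared with the fit on all arrays; 1 probe set then passed in opposite directions.

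**Figure D1:**
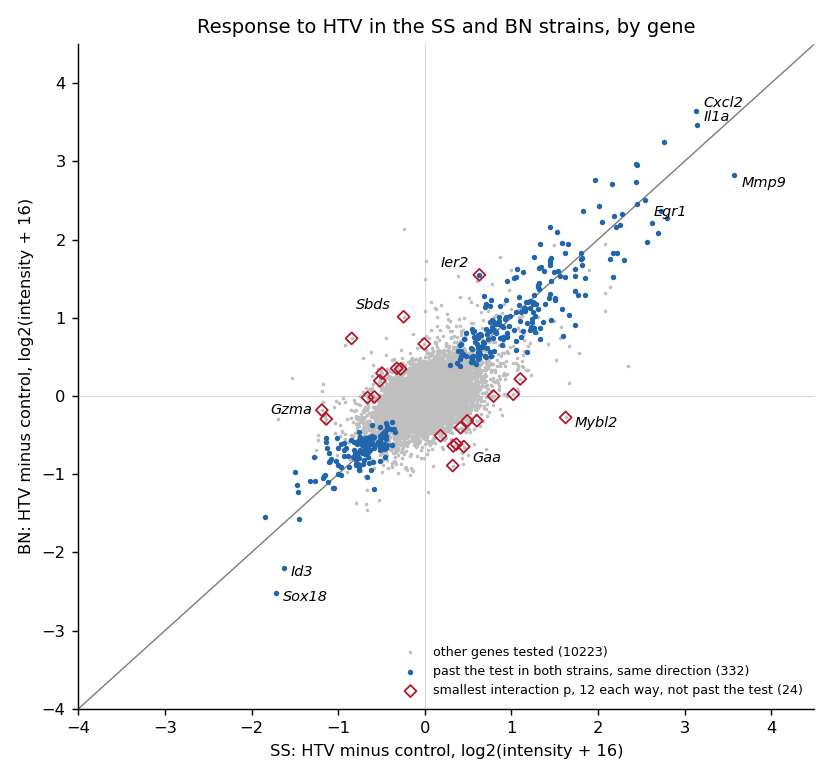
Change from control to HTV in SS lungs (x axis) against the change in BN lungs (y axis), in log2(intensity + 16), 1 point per gene for 10555 genes; the line marks equal changes. The 332 common responses (blue) run along the line, and the 24 genes with the smallest interaction p (red diamonds, none past the test) lie off it and mostly near the centre.

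Across the 10555 genes the SS and BN changes correlated at r = 0.657, a description over genes that share the same arrays. Among the 1646 genes past the mean test r was 0.904, which the choice of these genes by their mean raises. The interaction of these genes was also turned so that a positive value means a larger response in SS, whichever way the gene moved. Its median was 0.0469, with the SS response larger in 57.2% of the genes. Over all genes tested the median was 0.0379 and the share 55.6%. A response score per array over the same genes was -0.36 to -0.21 in the 6 controls and 0.17 to 0.36 in the 6 HTV arrays, with a pooled SD of 0.0632 within groups. The median thus lay inside the spread of 1 array, and it was 5e-04 without BN HTV 3, whose score of 0.20 was the lowest of the BN HTV arrays, and 0.0846 without SS HTV 2, the lowest of the SS HTV arrays at 0.17. Its sign changed, to -0.0163, without SS control 3 and BN HTV 3. Neither strain was shown to respond more strongly across the responding genes.

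The spread between arrays sets what the interaction could have shown. The 95% interval of a probe set's interaction had a median half-width of 0.46 log2 units, a factor of 1.38, and 0.31 to 0.83 from the 5th to the 95th percentile. To pass the adjusted threshold as the only call, a probe set would have needed an unadjusted limma p of 2.68e-06 or less, which at the median SE of 0.21 is an interaction of 1.65. The interaction's SE is 1.41 times that of the change in a single strain, so a strain difference has to be larger than a response to be seen. Brighter probe sets were measured more tightly. From the dimmest to the brightest of 4 intensity classes, the median half-width went from 0.53 to 0.38, and the median interaction needed for a lone call from 1.91 to 1.36.

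**Figure D2:**
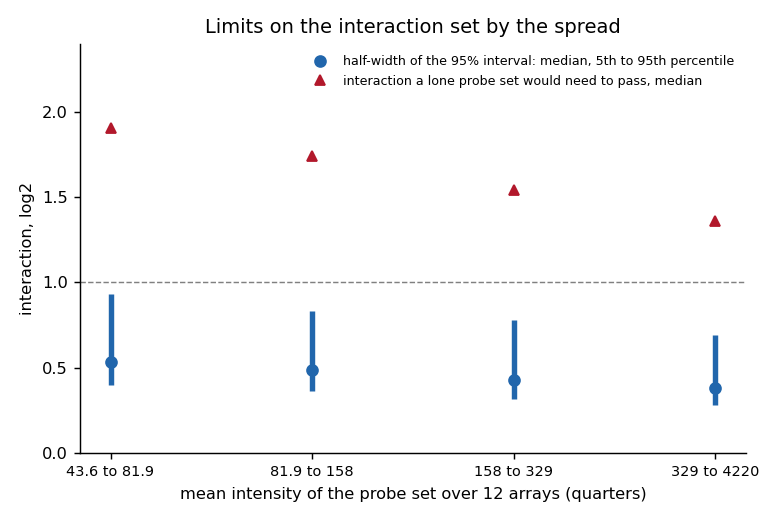
Size limits of the interaction in log2 units (y axis) by mean intensity in 4 classes of about 4657 probe sets each (x axis). Circles and bars give the median and the 5th to 95th percentile of the half-width of the 95% interval; triangles give the median interaction that a lone probe set would need to pass, and the dashed line is 1, a 2-fold difference.

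A response is called bounded here if its whole 95% interval of the interaction lies between -1 and 1, so that a strain difference of more than 2-fold lies outside the interval. This held for 15970 of 18626 probe sets (85.7%) and for 9306 of 10555 genes (88.2%). Among common responses 496 of 594 probe sets (83.5%) and 270 of 332 genes were bounded. Of the 332 common genes (3.15% of those tested; 202 higher, 1.91%, and 130 lower, 1.23%), 307 had an interval that included 0. The interval excluded 0 for 25, with the larger response in SS for 18 and in BN for 7. By probe set, 46 of 594 common responses (7.74%) had an interaction p below 0.05, against 8.31% of all probe sets. The strongest responders were the least bounded. Of 155 genes past the mean test with a mean change of at least 1, 71 were bounded, and the median half-width of such probe sets was 0.67. For the others the interval reached past a 2-fold difference in at least 1 direction.

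Immediate-early genes, which encode transcription factors and feedback regulators induced without new protein synthesis, rose in both strains for most of the list. Of 25 measured, 16 rose in both and Klf2 fell in both, and 12 were bounded. Nr4a3, an orphan nuclear receptor, had intensities of 16, 24.9 and 31.3 in SS controls, 192, 182 and 229 in SS HTV lungs, 26.3, 24.8 and 23.1 in BN controls and 221, 184 and 219.6 in BN HTV lungs. Its change was 2.45 in SS and 2.46 in BN (SE 0.16 in each; limma adjusted p = 3.24e-06 and 2.31e-06), and the interval of the interaction was -0.48 to 0.46. Its relative Nr4a1 rose by 2.25 and 2.18 (interval -0.47 to 0.61). Every HTV array lay above every control array for both receptors, and the strains' HTV ranges overlapped. Such separation in the same direction in both strains, also given for genes below, held for 1157 of 10555 genes (11%). Atf3, a stress-induced repressor, had 148, 176 and 84.8 in SS controls, 857, 633 and 897 in SS HTV lungs, 97.5, 165 and 90.1 in BN controls and 1316, 745 and 989 in BN HTV lungs. It rose by 2.45 in SS and 2.96 in BN, and its interval of -1.32 to 0.31 did not bound the difference; without SS control 3, the array with the lowest Atf3 value, the interaction went from -0.51 to -0.78. Egr1, a zinc finger factor, rose by 2.54 and 2.50, with an interval of -1.19 to 1.27.

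Among the same genes 4 had an interaction p below 0.05, 3 with the larger value in BN. Ier2, a nuclear immediate-early protein, had 386, 335 and 421 in SS controls, 614, 462 and 742 in SS HTV lungs, 277, 351 and 262 in BN controls and 927, 863 and 890.4 in BN HTV lungs. The groups did not overlap in either strain, and the BN HTV arrays were the highest of all 12. Ier2 rose by 0.63 ± 0.16 in SS (limma adjusted p = 0.0276) and by 1.55 ± 0.16 in BN (adjusted p = 8.9e-05), an interaction of -0.92 ± 0.22 (interval -1.40 to -0.44; unadjusted p = 0.00113, adjusted p = 0.53). Fos, a subunit of the AP-1 factor, was at 227, 223 and 222 in SS controls and 190.5, 220 and 181 in BN controls, and at 615, 486 and 675 in SS HTV and 862, 672 and 877 in BN HTV lungs. It rose in both strains, by 1.33 and 1.94, with an interaction of -0.61 (-1.02 to -0.19). Jund, another AP-1 subunit, passed in neither strain, at -0.61 in SS and 0.25 in BN; its interaction of -0.87 was -0.55 without SS control 3, the highest SS array. A dimmer probe set of Jund did pass in BN, with a change of 1.26 (limma adjusted p = 0.0033), 0.23 in SS and an interaction of -1.03. The receptor gene Nr4a2 leaned the other way, rising by 1.19 in SS and 0.57 in BN (interaction 0.62, 0.17 to 1.07). Over the 25 genes the median interaction was -0.12, against 0.03 over all genes tested, with 8 of 25 above 0. It ran from -0.29 without SS control 3 and SS HTV 3 to -0.0017, with 12 of 25 above 0, without SS HTV 2, so that 1 array removed the lean; without SS control 2 it was -0.03, also with 12 above 0.

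Promoters of common risers are shown because the immediate-early response acts through short promoter elements, and the 5 genes printed rose in both strains. RefSeq promoters of the rat assembly GRCr8, from 250 bases before to 50 bases after the gene start, were searched on both strands for TGANTCA (the AP-1 element), TGACGTCA (the cyclic AMP response element) and the CArG box of serum response factor. Of 10555 genes tested 8213 had exactly 1 promoter in the table, and 4.93%, 3.13% and 1.31% of them held these motifs. Genes with none or with more than 1 were left out of the shares by gene. Among the 156 common risers with exactly 1 promoter the shares were 10.3%, 7.05% and 3.21%, and among 97 such common fallers 4.12%, 2.06% and 1.03%. Over all 33469 promoters of the table they were 7.33%, 1.83% and 1.64%. The lines give 150 bases before the start, 5′ to 3′ on the gene's strand, with the motif in capitals. A match describes the letters only. The 5 genes were picked from named or immediate-early common risers that held a motif, as Egr1 also did (CArG box). Cxcl2, Depp1, Fosl2, Junb, Mmp8, Nr4a1, Nr4a2, Stfa2l2 and Tmem252, searched in the same way, held none. Of 16 immediate-early genes with exactly 1 promoter, 0 held the AP-1 element, 4 the cyclic AMP response element and 4 the CArG box.
Dusp1, a phosphatase that switches off MAP kinases, chr10:17184703-17184852, plus strand, cyclic AMP response element: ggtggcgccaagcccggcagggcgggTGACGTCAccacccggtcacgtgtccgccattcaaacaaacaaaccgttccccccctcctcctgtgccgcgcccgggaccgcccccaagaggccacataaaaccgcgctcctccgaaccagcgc
Ier2, chr19:40399223-40399372, plus strand, cyclic AMP response element: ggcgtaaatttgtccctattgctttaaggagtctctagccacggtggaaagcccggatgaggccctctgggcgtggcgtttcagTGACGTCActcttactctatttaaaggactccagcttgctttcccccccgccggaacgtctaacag
Maff, small Maf factor, chr7:112792637-112792786, plus strand, cyclic AMP response element: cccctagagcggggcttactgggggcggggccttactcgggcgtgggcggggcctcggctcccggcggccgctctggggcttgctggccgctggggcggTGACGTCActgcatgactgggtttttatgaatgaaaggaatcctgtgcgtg
Zfp36, mRNA decay factor tristetraprolin, chr1:92799109-92799258, minus strand, CArG box: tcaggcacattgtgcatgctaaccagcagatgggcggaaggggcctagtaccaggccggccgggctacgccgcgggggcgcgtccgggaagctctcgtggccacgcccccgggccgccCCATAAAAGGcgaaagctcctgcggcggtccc
Il1a, interleukin 1 alpha, chr3:136990018-136990167, minus strand, AP-1 element: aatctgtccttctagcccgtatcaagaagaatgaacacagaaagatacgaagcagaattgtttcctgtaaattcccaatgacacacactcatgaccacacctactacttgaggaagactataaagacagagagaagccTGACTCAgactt

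Dusp1, which like Ier2 holds the cyclic AMP response element in this window, rose by 0.54 in SS and 0.62 in BN, with an interaction of -0.08 (-0.46 to 0.30). A second, dimmer probe set of Dusp1 gave 1.26 and 1.74, with an interaction of -0.48 (-1.21 to 0.24), so the size of its response differs between probe sets. Maff had intensities of 49.1, 49.3 and 41.8 in SS controls, 242, 131 and 260.5 in SS HTV lungs, 87.1, 67.9 and 48.3 in BN controls and 355, 204 and 245 in BN HTV lungs and rose by 1.80 and 1.75. Zfp36 rose by 1.39 and 1.17, with all HTV arrays above all controls.

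Cytokine responses were measured with very different precision. Il1a, an alarm cytokine of the interleukin 1 family, had 117, 119 and 136 in SS controls, 1393, 933 and 1387 in SS HTV lungs, 100.8, 126 and 94.2 in BN controls and 1532, 1385 and 1114 in BN HTV lungs, with no overlap between control and HTV in either strain. It rose by 3.14 ± 0.17 in SS and 3.46 ± 0.17 in BN (limma adjusted p = 9.26e-07 and 2.64e-07), with an interaction of -0.32 bounded by -0.83 to 0.19. Osm, an interleukin 6 family cytokine, rose by 1.81 and 1.77 (interval -0.67 to 0.76), and the neutrophil-attracting chemokine Cxcl1 by 1.81 and 1.83 (-0.90 to 0.86). Cxcl2, a second ligand of the same receptor, was at 50.2, 37.9 and 65 and 43.1, 37.8 and 53.9 in SS and BN controls, and at 970.3, 199.6 and 902 in SS HTV and 1507, 997 and 269 in BN HTV lungs. SS HTV 2 and BN HTV 3 were the low arrays of their groups. The changes were 3.13 and 3.65, with an interval of -2.27 to 1.24, an interval that holds a 2-fold difference in either direction. Of 16 measured cytokines and chemokines 5 were common rises, 6 were bounded and 0 had an interaction p below 0.05. Their median interaction of -0.28 changed sign when 1 array was left out, to 0.17 without SS HTV 2 and 0.09 without BN HTV 1. For Ccl2, a monocyte chemoattractant, the interaction of -0.92 had an interval of -3.26 to 1.42.

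A list of NF-kB subunits, their feedback inhibitors, and adhesion and inflammatory genes gave 4 common rises among 18 genes, with 7 bounded. The mean HTV test was passed higher by 14 of the 18. Its feedback members are inhibitors induced by the factor they restrain. The median interaction was 0.13, and it changed sign without BN HTV 3 (-0.18), SS HTV 1 (-0.05) or SS HTV 3 (-0.05). Nfkbia, the inhibitor IkB alpha, rose by 1.22 in SS and 1.21 in BN (interval -0.62 to 0.62), and Tnfaip3, a ubiquitin-editing inhibitor, by 2.27 and 2.32 (-1.22 to 1.12). Genes induced by glucocorticoids or C/EBP factors followed. Of 17 measured, 11 rose in both strains and 8 were bounded, and their median change was 1.19 in SS and 1.20 in BN. Cebpd, a C/EBP factor, was at 387, 636 and 499 in SS controls and 374, 491 and 489.5 in BN controls, against 1694, 1472 and 1518 and 1636, 1585 and 1675 in HTV lungs. It rose by 1.62 and 1.83, and Errfi1, an inhibitor of epidermal growth factor receptors, by 1.74 and 1.62; their intervals were -0.68 to 0.26 and -0.34 to 0.57. The exception by unadjusted p was Cdkn1a, the cell cycle inhibitor p21, at 348, 262 and 207 in SS controls, 1440.2, 1394 and 999 in SS HTV lungs, 170.4, 216 and 176 in BN controls and 535, 715 and 468 in BN HTV lungs. It rose in both strains, by 2.18 in SS and 1.52 in BN (interaction 0.66, 0.05 to 1.26), and a second probe set gave an interaction of 1.23.

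Coagulation, oxidant-defence and unfolded-protein genes gave further common rises. Tissue factor, F3, which starts clotting, rose by 1.45 in SS and 1.67 in BN, and the plasminogen activator Plat by 1.15 and 1.12 (intervals -0.88 to 0.43 and -0.36 to 0.42). Of 16 coagulation and fibrinolysis genes 5 rose in common and 14 were bounded. The metallothionein gene Mt2A rose by 2.63 and 2.21, and Srxn1, which repairs oxidised peroxiredoxins, by 1.27 and 0.82 with an interaction of 0.45 (0.06 to 0.85). Of 22 genes of endoplasmic reticulum stress 3 rose in common and 20 were bounded. As a list they leaned to BN, with a median interaction of -0.15 and 5 of 22 above 0 (22.7%, against 53.6% of all genes). An unadjusted interaction p below 0.05 was seen for 2 on the BN side and 0 on the SS side. The median was -0.05 with array weights and -0.13 without SS control 3, each with 0 such genes on the BN side. Herpud1, which helps to degrade misfolded proteins, passed in BN at 0.84 and not in SS at 0.32 (interaction -0.52, -0.98 to -0.06; not past the adjusted test).

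Neutrophil markers rose strongly in both strains and gave the least information on a strain difference. In whole lung, more neutrophils and more RNA per neutrophil cannot be told apart, and the same holds for every cell type below. Of 10 measured markers 7 were common rises, and 0 of 10 were bounded. Mmp8, a neutrophil collagenase, was at 58.1, 47.8 and 47.9 in SS controls, 559.8, 326 and 499 in SS HTV lungs, 34.7, 28.2 and 39.4 in BN controls and 573, 265 and 68.2 in BN HTV lungs. It rose by 2.80 ± 0.48 in SS and 2.27 ± 0.48 in BN, with an interval of -0.93 to 1.99. S100a9, a subunit of calprotectin, rose by 1.45 and 2.16 (-1.65 to 0.24). The mean of the list, centred over arrays, was 0.81 to 1.6 in the SS HTV arrays, lowest in SS HTV 2, and 1.72, 1.36 and -0.54 in BN HTV arrays, against -1.65 to -0.84 in the controls. BN HTV 3 was thus the lowest HTV array for these genes, and without it the interaction of Mmp8 went from 0.53 to -0.23 and that of Mmp9, the gelatinase of neutrophil granules, from 0.76 to -0.40.

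**Figure D3:**
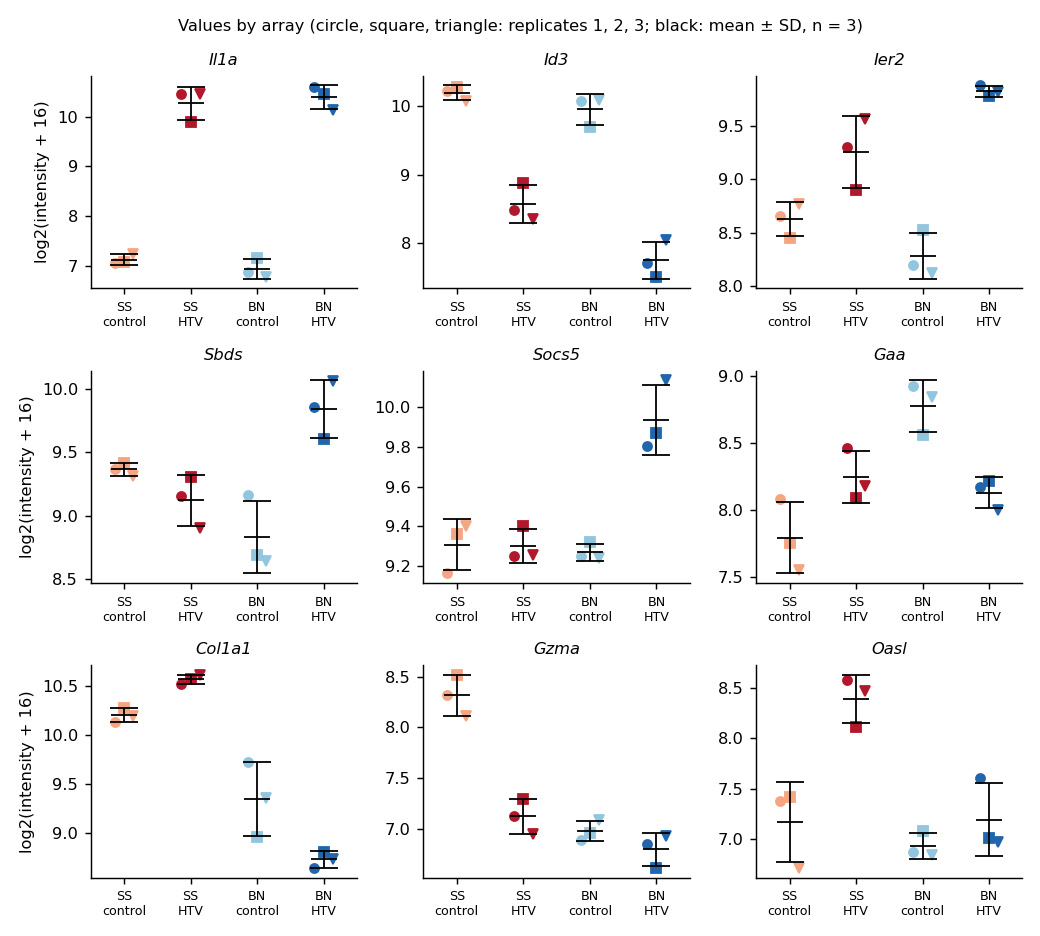
Values of 9 genes by group in log2(intensity + 16) (y axes, each with its own range); symbols are replicates 1 to 3, and black bars are the mean ± SD over 3 arrays. Il1a and Id3 changed in both strains, Ier2 rose further in BN, Sbds and Socs5 rose in BN, Gaa and Col1a1 fell in BN while the SS values lay higher with HTV without passing the test, Gzma fell in SS, and Oasl rose in SS.

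The 10 largest common falls included endothelial regulators and B cell genes, but not every member of either list fell in both strains. The median of the mean HTV effect was -0.11 over the endothelial list and -0.55 over the B cell list, against -0.02 over all genes. Of 33 endothelial genes 9 passed the mean test lower and 3 higher, and of 5 B cell markers 2 lower and 0 higher. Over all genes the shares were 8.71% lower and 6.89% higher. For Sox17, Flt1, Notch4 and S1pr1 the HTV arrays lay above the controls in both strains, and for the B cell gene Cd22 in SS. Id3, a helix-loop-helix inhibitor that answers to BMP signals, was at 1185, 1231 and 1065 in SS controls, 342, 457 and 311 in SS HTV lungs, 1063, 815 and 1078 in BN controls and 192, 166 and 247 in BN HTV lungs. It fell in SS by a change of -1.62 ± 0.17 and in BN by -2.21 ± 0.17 (limma adjusted p = 0.000108 and 1.29e-05), and the interaction was 0.58 ± 0.23 (0.08 to 1.08; unadjusted p = 0.0266). The BN HTV arrays were the lowest of the 12, all below the SS HTV arrays. Sox18, a vascular transcription factor, changed by -1.71 and -2.52, with 629.9, 703 and 437 and 894, 641 and 711 in SS and BN controls and 149, 291 and 102 and 109.5, 94.8 and 149 in HTV lungs; its interval of -0.07 to 1.68 included 0, and the interaction went from 0.81 to 0.43 without SS HTV 2. Klf2, which follows shear stress, changed by -1.46 and -1.23 on its brightest probe set (a dim one, at -0.33 and -0.28, passed in neither strain), and the Notch target Hey1 by -1.46 and -1.57. Neither was bounded (-1.04 to 0.58 and -0.99 to 1.22), and the high arrays were again SS HTV 2 and BN HTV 3.

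Arhgef15, a gene of endothelial cells, was the most closely bounded of the large falls. Its intensities were 559, 562 and 505 in SS controls, 281, 239 and 236 in SS HTV lungs, 659, 782 and 537 in BN controls and 258, 299 and 283 in BN HTV lungs, and it changed by -1.06 and -1.18, with an interval of -0.28 to 0.52. Hhex, a homeobox factor, changed by -1.27 and -1.08 (-0.76 to 0.39), and Btbd3 by -1.47 and -1.14 (-0.89 to 0.22). Cd79b, a chain of the B cell receptor complex, was at 74.9, 77.8 and 78.2 in SS controls and 15.3, 10.1 and 5.3 in SS HTV lungs, and at 99.3, 63.2 and 67.4 and 29.5, 3.3 and 18.7 in BN; it fell in both strains, with changes of -1.84 and -1.55. Of the 20 largest common responses, 10 in each direction, 5 were bounded.

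**Figure D4:**
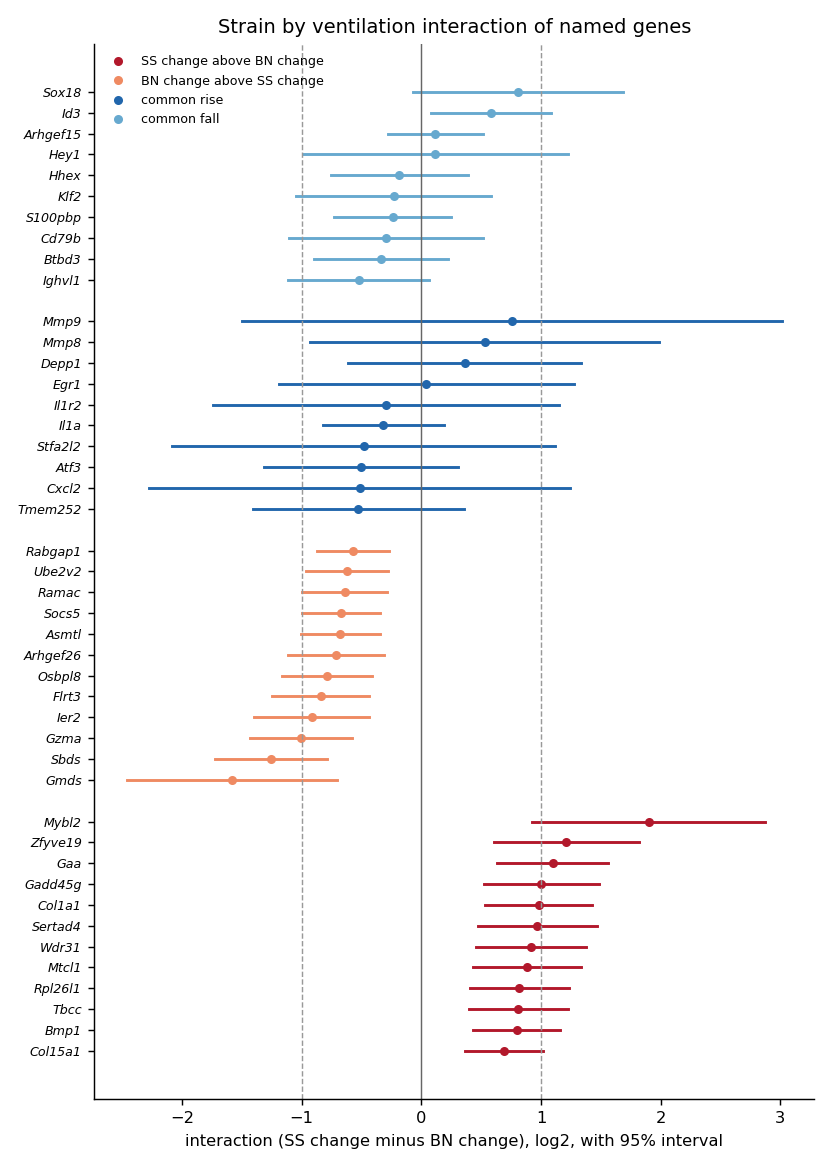
Interaction (SS change minus BN change, log2, x axis) of the 20 largest common responses and of the 24 genes with the smallest interaction p, with 95% intervals; dashed lines mark -1 and 1. Intervals of the common responses mostly cross 0 and are wide for the neutrophil genes Mmp9, Mmp8 and Stfa2l2 and for Cxcl2, while those of the other genes exclude 0 because they were chosen by p.

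The genes that leaned furthest to one strain were ranked by unadjusted p, 12 in each direction, since none passed. Their interactions were between 0.57 and 1.90 in size, with unadjusted p of 5.93e-05 to 0.00189, and each kept its sign and an unadjusted p below 0.05 on the same probe set in the 24 alternative settings run (23 for Wdr31, Rpl26l1, Tbcc, Mybl2 and Gmds, which the stricter filter leaves out). For 9 of the 24 the arrays did not overlap in either strain and moved in opposite directions, which held for 85 of all 10555 genes (0.805%). These values describe the choice by p and are no further support.

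Of the 12 genes whose SS change lay above the BN change, 3 encode connective tissue proteins or their processing enzyme. Col1a1, the main fibrillar collagen chain, was at 1109.6, 1227 and 1156 in SS controls, 1454, 1503 and 1552 in SS HTV lungs, 831, 484 and 642 in BN controls and 385, 434 and 413 in BN HTV lungs. HTV arrays were above the controls in SS and below them in BN, and SS levels were higher throughout. The change was 0.36 ± 0.15 in SS, which did not pass (limma adjusted p = 0.141), and -0.62 ± 0.15 in BN (adjusted p = 0.026), an interaction of 0.98 (0.53 to 1.43); a second probe set gave 0.68. Col15a1, a basement membrane collagen, had 470.5, 476 and 432 in SS controls, 485, 490.5 and 599.7 in SS HTV lungs, 324, 348 and 326 in BN controls and 211, 232 and 244 in BN HTV lungs, and an interaction of 0.69 (0.37 to 1.01). Bmp1, the protease that trims procollagens, rose in SS from 484, 466 and 401 to 821, 744 and 808 (change 0.79, adjusted p = 0.00156), while BN values were 494, 651 and 562 in controls and 585, 504 and 609.8 with HTV (change -0.002). Its interaction was 0.80 (0.43 to 1.16), and a second, dimmer probe set gave 0.0075.

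Other genes on the SS side had varied roles. Gaa, the lysosomal glucosidase that degrades glycogen, was at 255, 199.7 and 172 in SS controls, 338, 257 and 274 in SS HTV lungs, 472, 362 and 444 in BN controls and 273, 282 and 239.8 in BN HTV lungs. The interaction of 1.10 ± 0.22 (0.64 to 1.56; limma adjusted p = 0.53) had the smallest unadjusted p of this direction, and a dimmer probe set gave 0.32. Gadd45g, a growth arrest and DNA damage gene, rose in SS from 174, 209.9 and 144 to 357, 393 and 361 (change 1.02, adjusted p = 0.00189), against 282, 306 and 264 and 309, 346 and 223 in BN (change 0.02); without SS control 3 and BN HTV 3 the interaction went from 1.001 to 0.70. Mtcl1, a microtubule crosslinker, rose in SS by 1.10, with 0.22 in BN. Mybl2, a cell cycle transcription factor, had the largest value, 1.90 (0.93 to 2.87), on dim signals of 6.8, 38 and 7.4 in SS controls and 79.1, 71.7 and 85.7 in SS HTV lungs, and was 1.02 with a pseudocount of 64 and 0.49 on a second probe set. The remaining 5 (Zfyve19, Wdr31, Rpl26l1, Tbcc and Sertad4) had interactions of 0.81 to 1.21.

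On the BN side Sbds, a ribosome assembly factor, had the smallest p of all genes. Its intensities were 645, 666 and 621 in SS controls, 555, 616 and 462 in SS HTV lungs, 556, 397 and 383 in BN controls and 910.3, 764 and 1054 in BN HTV lungs. It rose in BN by 1.01 ± 0.15 (limma adjusted p = 0.00211), the SS change was -0.24 ± 0.15 and did not pass, and the interaction was -1.26 ± 0.22 (-1.73 to -0.79; unadjusted p = 5.93e-05, adjusted p = 0.53). A dimmer probe set of Sbds had an interaction of 0.16, so the probe sets of this gene disagree. Socs5, an inhibitor of cytokine signalling, was at 558, 642 and 659.6 in SS controls, 594, 661 and 595 in SS HTV lungs, 592, 623 and 590.2 in BN controls and 877, 921 and 1109 in BN HTV lungs; the BN HTV arrays were the highest and the other 3 groups overlapped. It rose by 0.67 in BN (adjusted p = 0.00286), and its interaction of -0.67 was bounded (-0.997 to -0.35), though a second probe set gave 0.11.

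Some genes entered this side through a larger fall in SS. Gzma, a granzyme of cytotoxic lymphocytes, was at 304, 349.9 and 261 in SS controls, 124, 142 and 108 in SS HTV lungs, 103, 109 and 120.5 in BN controls and 99.9, 82.3 and 106 in BN HTV lungs. SS controls stood above the other 3 groups, the SS HTV arrays were near the BN level, and the change was -1.19 in SS (adjusted p = 0.000289) and -0.18 in BN, an interaction of -1.01 (-1.44 to -0.58). Over all 16 measured T and NK cell markers the median interaction was -0.0065, and Gzma alone had an interaction p below 0.05. The mean of that list was 0.59, 0.66 and 0.02 in SS controls, so that SS control 3 lay near the SS HTV arrays (-0.01 to 0.06); without this array the interaction of Gzma was -1.11. Flrt3, an adhesion protein of the fibronectin leucine-rich family, was at 566, 574 and 469 in SS controls and 234, 234 and 234 in SS HTV lungs, against 331, 370.1 and 303 and 239, 245 and 333 in BN (interaction -0.84). Rabgap1, a Rab GTPase regulator, fell in SS with a change of -0.58, with -0.01 in BN (interaction -0.57, and -0.17 on a second probe set), and Ramac, a cofactor of mRNA capping, with -0.66 and -0.02. The other 5, Osbpl8, Asmtl, Ube2v2, Arhgef26 and Gmds, had interactions of -1.58 to -0.62.

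Among the 155 strongest responders, chosen by their mean change and so independently of the interaction, 88 had the larger response in SS and 67 in BN. The SS share of 56.8% was near the 55.6% of all genes tested. The genes named from the 155 were then picked for the largest leans, so their intervals and p-values describe that choice and are no further support. The largest lean to SS was that of Pck1, the gatekeeper enzyme of gluconeogenesis, at 43.4, 40.5 and 55.8 in SS controls, 370, 267 and 275 in SS HTV lungs, 151, 65.3 and 230 in BN controls and 100.3, 194 and 289.9 in BN HTV lungs. All SS HTV arrays were above the SS controls and the BN groups overlapped. It rose in SS by 2.35 ± 0.37 (limma adjusted p = 0.0021), with 0.39 in BN. The interaction was 1.96 ± 0.52 (0.85 to 3.08) and did not pass (limma unadjusted p = 0.00213, adjusted p = 0.53). Rasd1, a Ras-like protein induced by dexamethasone, rose from 65.7, 53.6 and 66.6 to 241, 278 and 182 in SS and was at 52.5, 58.9 and 79.9 and 122, 69.5 and 143 in BN, an interaction of 1.02 (0.35 to 1.69). Itga7, a laminin receptor chain, and Bcl6b, a transcriptional repressor, rose in both strains with interactions of 0.83 and 0.82; the other probe sets of Bcl6b gave 0.44, 0.51 and 1.28. For Cemip2, a hyaluronidase, the value of 0.99 rested on SS control 3, whose intensity was 22.4 where SS control 1 and 2 had 108.8 and 125.5, and was 0.39 without it. The largest leans to BN besides Ier2 were those of Hba-a3 (-0.91), an alpha globin, Cflar (-0.79), an inhibitor of caspase 8, and S100a9 (-0.71) among rises, and of Sox18 (0.81) and the homeobox gene Hoxa5 (0.79) among falls. The intervals of these 5 included 0. Without SS control 3 the value of Hoxa5 was 0.45 and that of Hba-a3 -0.58, and without SS HTV 2 that of Cflar was -0.19; a second probe set of Cflar gave -0.31.

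Gene lists were described by counts and medians only, beside 8.53% of all genes with an interaction p below 0.05 and a median interaction of 0.03. In the extracellular matrix list 10 of 29 genes had an unadjusted p below 0.05, each with the SS change above the BN change (4.94% of all genes), 22 of 29 were above 0 (53.6% of all genes), and the median was 0.23. None of the 10 passed the adjusted test. Besides Col1a1 and Col15a1 they were Col1a2, Col4a1, Col4a2, Col6a1, Col6a2, Col6a3, the microfibril gene Fbn1 and the proteoglycan gene Bgn. Col4a2, a chain of basement membrane collagen, was at 871, 1065 and 607 in SS controls, 1233, 1286 and 1266 in SS HTV lungs, 837, 835 and 867 in BN controls and 861, 813 and 737 in BN HTV lungs; it rose in SS by 0.60 (adjusted p = 0.029) with -0.08 in BN. The SS control 3 value of Col4a2 was the lowest of all arrays, and its change without that array is not given here. Over the list, SS changes were small and BN changes lay on the other side of 0, with medians of 0.06 and -0.14. The count was 5 to 12 over the settings run, lowest without SS HTV 2 or BN HTV 2, and 7 with a median of 0.30 without SS control 3. Fibronectin, Fn1, was at -0.12 (-0.46 to 0.22), so not every member leaned to SS. Postn, periostin, was slightly above 0 at 0.09 (-0.25 to 0.43). Without SS control 3 the interaction of Col4a1 was 0.30 and that of Bgn 0.38, from 0.50 and 0.72.

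**Figure D5:**
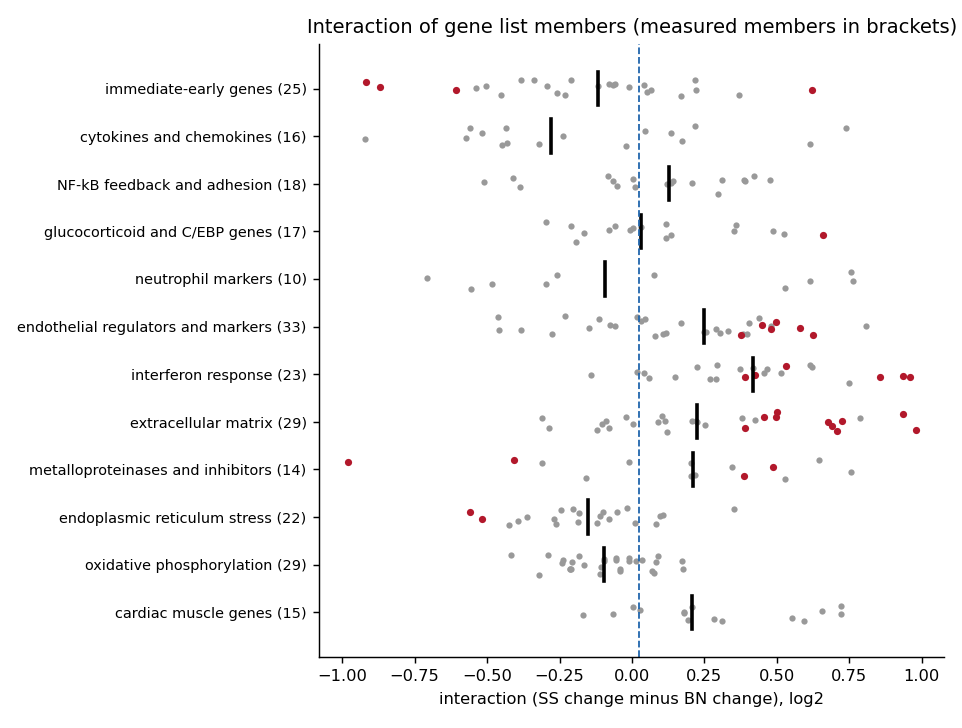
Interaction (SS change minus BN change, log2, x axis) of the measured members of 12 gene lists, 1 point per gene; red points have an unadjusted p below 0.05, black bars are list medians, and the dashed line is the median of all genes, 0.03. Red points of the matrix, interferon and endothelial lists lie on the SS side, and the oxidative phosphorylation genes lie close to 0.

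The interferon response list leaned the same way, and its count rested on several arrays. Of 23 genes, 22 were above 0, with a median of 0.42, and 6 had an interaction p below 0.05. Oasl, an oligoadenylate synthetase-like antiviral protein, was at 150.3, 154 and 88.7 in SS controls, 367, 262 and 339 in SS HTV lungs, 101.2, 119.5 and 98.3 in BN controls and 179, 112 and 109 in BN HTV lungs. It rose in SS by 1.22 (limma adjusted p = 0.00383) and was 0.26 in BN, an interaction of 0.96 (0.32 to 1.61). The SS control 3 value of Oasl was the lowest of all arrays, and its change without that array is not given here. Ifit2, an antiviral RNA-binding protein, rose by 0.92 in SS with 0.39 in BN, and the ubiquitin-like modifier Isg15 had an interaction of 0.94 on an SS change of 0.64 that did not pass. The mean of the list was 0.28, 0.51 and -0.22 in SS controls, 0.38 to 0.66 in SS HTV arrays, -0.39 to -0.18 in BN controls and -0.61 to -0.22 in BN HTV arrays. SS control 3 was thus at the BN level for these genes. Without it the median was 0.25, 17 of 23 were above 0 and 2 had a p below 0.05, and without BN control 1 the median was 0.31, with 2 at a p below 0.05. Without SS HTV 3 or BN HTV 3 the count was 3. Without both SS control 3 and SS HTV 3 the median was 0.14, with 13 of 23 above 0 (56.5%, against 53.6% of all genes). Without SS control 3 and BN HTV 3 it was 0.11, with 14 of 23 above 0 (60.9%, against 52.9% of all genes). With array weights, which give SS control 3 little influence, the median was 0.26 and 1 had a p below 0.05.

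Endothelial regulators and markers had 6 of 33 genes with an interaction p below 0.05, each with the SS value above the BN value. These were Id3, Id1, Smad7, the BMP co-receptor Eng and the transcription factors Erg and Sox7. For Eng, with 1200.5, 1215 and 1065 and 1239, 1281 and 1158 in SS and 1408, 1291 and 1200.5 and 1127, 851 and 1046 in BN, the changes were 0.08 and -0.37 and the interaction was 0.45 (0.11 to 0.79). Sox7 fell in BN with a change of -0.74 (adjusted p = 0.0115), against -0.24 in SS. The median of the list was 0.25, and 0.12 without SS control 3, where 3 genes had a p below 0.05; Erg then stood at 0.41 and Smad7 at 0.24, from 0.63 and 0.38. The count was 1 without BN HTV 2, 2 without BN control 2, and 3 without SS HTV 2 or BN HTV 1. Pecam1, the endothelial adhesion molecule, was bounded at -0.11 (-0.44 to 0.22), with intensities of 432 to 817 over the 12 arrays.

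Single members of other lists leaned to BN. Ccn1, a matrix protein induced by stretch, was at 10.4, 28.2 and 8.4 in SS controls, 22.9, 26.1 and 22.2 in SS HTV lungs, 169, 226 and 152 in BN controls and 627, 428 and 631 in BN HTV lungs. It rose in BN by 1.54 (adjusted p = 0.0015); the SS change was 0.38 and the interaction -1.16 (-1.84 to -0.48). The SS signals were dim in every array, so the scale used compresses any change there. Timp1, an inhibitor of metalloproteinases, was at 307, 358 and 300 in SS controls, 366, 362 and 373 in SS HTV lungs, 124, 76.1 and 179 in BN controls and 227, 497 and 212 in BN HTV lungs, with an interaction of -0.98 (-1.85 to -0.12), and rose in BN by 1.17; without BN HTV 2, the highest BN array, the interaction was -0.61. Nos2, the inducible nitric oxide synthase, passed in neither strain, with 0.0043 and 1.501. Spry2, a brake on receptor tyrosine kinases, fell in SS with a change of -1.04 (adjusted p = 0.0046) and was at -0.34 in BN, and the Wnt receptor gene Fzd1 had an interaction of -0.55. Towards SS leaned the class II gene RT1-Ba, at 45.1, 26.4 and 55.5 in SS controls and 94.9, 95.4 and 61 in SS HTV lungs against 2508, 1903 and 2263 and 1955, 2138 and 2006 in BN, a level difference that again puts the SS values near the floor; the other 3 probe sets of RT1-Ba gave interactions of -1.59, 0.32 and 0.63. Axin2, a target and inhibitor of Wnt signalling, fell in BN with a change of -1.38 (adjusted p = 0.00236) and was at -0.68 in SS (interaction 0.70, 0.04 to 1.36; 0.42 without SS control 3).

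Lists of alveolar epithelium and of mitochondria were bounded more often than the 88.2% of all genes, and airway markers less often. In the surfactant and transport list 21 of 22 genes were bounded, with 1 interaction p below 0.05, that of Cav2 (-0.45, and 0.28 on a second probe set). Sftpc was at -0.39 to 0.48, Sftpb at -0.22 to 0.45 and the water channel gene Aqp5 at -0.29 to 0.31. All 10 type 2 cell markers, 8 type 1 cell markers and 11 smooth muscle markers were bounded, with 0 interaction p below 0.05 among them, adjusted or not. Of 8 club and ciliated cell markers 5 were bounded (62.5%). Of 29 oxidative phosphorylation genes 28 were bounded and 8 had an interaction above 0. Their median interaction was -0.10, and 0.003 with array weights. Cardiac muscle genes were the opposite case. Of 15 measured 1 was bounded, and the mean of the list was -1.84 to -0.76 in SS controls and -1.55 to 0.30 in SS HTV arrays, with 0.32 to 1.23 in BN controls and 0.23 to 1.90 in BN HTV arrays. Such genes mark heart or pulmonary vein muscle in a lung sample, and their part in any other interaction was not tested.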

How the data were processed

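Lung RNA of 12 rats was measured on 12 Affymetrix arrays. The deposited values are 1 linear signal intensity per probe set, scaled by the authors so that the mean between the 2nd and 98th percentile is alike on all arrays; MAS5 is named per the submitters' processing notes, and its version is not given in the sources used here. Of 31099 probe sets, 57 controls were left out, and 18626 with a mean intensity at or above the 40th percentile (43.6) were tested. Intensities were turned into log2(intensity + 16) and fitted in limma 3.58.1 (R 4.3.3, lmFit, eBayes with an intensity trend) as 4 group means, with 8 residual degrees of freedom and 13.3 after moderation. P-values were adjusted over the 18626 by the Benjamini-Hochberg method at 0.05. The number of arrays limits the precision. The platform annotation gives 20832 probe sets 1 gene symbol, 436 several and 9774 none, and genes were named from the first kind only.

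Named were the 12 genes each way with the smallest interaction p, the 10 largest common rises and falls, the 6 strongest responders leaning furthest each way, and list members with the smallest interaction p; further list members quoted as examples were chosen after their values were seen. Of 702 entries in 35 lists, 570 were measured. The genes, lists and comparisons were chosen with earlier results of these data known. The scripts' tests were checked on simulated data. Alternatives covered the pseudocount, filter, normalization, variance model, array weights, covariates and arrays left out. Promoter coordinates are those of RefSeq on GRCr8.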

Additional observations from a re-analysis of the deposited data

Results flagged for a closer look

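In 9 of the 24 genes with the smallest interaction p, every HTV array lay on one side of the controls in SS rats and on the opposite side in BN rats. By their interaction (SS change minus BN change, log2) they were Gaa (1.10), Col1a1 (0.98), Rpl26l1 (0.82), Tbcc (0.81) and Col15a1 (0.69) on the SS side, and Sbds (-1.26), Osbpl8 (-0.79), Asmtl (-0.68) and Ube2v2 (-0.62) on the BN side. Such opposite arrays were found for 85 of 10555 genes (0.805%), and the pattern of non-overlap was not itself tested. The limma interaction of each of the 9 had an adjusted p of 0.53, so none was shown to differ between the strains.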

How the results depend on the processing

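With 3 arrays a group, the counts of calls moved with single arrays and with array weights, which gave 3901 calls of the mean effect, 2114 in SS and 843 common responses. The interaction count was 0 in each of the other alternatives and 0 to 1 when 1 array was left out; the 1 call, without SS control 2, was a probe set with no gene symbol (interaction 1.96, adjusted p = 0.0296, against 1.40 on all arrays). The number at an unadjusted p below 0.05 was 1019 with the stricter filter and 2498 with none. SS calls numbered 569 without SS control 3 and SS HTV 3, and 639 to 1490 with 1 array left out (639 without SS HTV 1, 682 without SS HTV 3, 905 without SS control 2, 999 without SS control 3). BN calls numbered 1667 with array weights, and 542 to 1463 with 1 array left out (542 without BN HTV 1, 561 without BN HTV 2, 570, 581 and 625 without BN control 2, 1 and 3). Common responses numbered 369 without SS control 3 and SS HTV 3, and 354 to 594 with 1 array left out (354 without BN HTV 1, 364 without BN control 1, 371 without SS HTV 3, 373 without SS HTV 1, 374 without BN control 2, 394 without BN HTV 2). Bounded common responses numbered 301 and 274 to 498 in the same settings (274 without BN HTV 1, 284 without BN control 1, 291 without SS HTV 1, 301 without BN control 2, 306 without SS HTV 3, 315 without BN HTV 2, 319 without BN control 3, 330 without SS control 2). The cause was not tested beyond the smaller number of arrays. With each strain fitted on its own arrays, 401 responses were common, 390 of them among the 594. Direction was checked for the 20 largest common responses only. Of their values in the alternatives, 467 again passed in both strains and 32 did not. No mean HTV effect among them changed direction. Uncalled interactions did: 11 of 54 named genes, among them Mmp8, Mmp9, Cxcl2 and Egr1, changed sign in at least 1 alternative (30 of 1343 values), and the median signed interaction went from 0.0469 to -0.0163 without SS control 3 and BN HTV 3. The 1343 values include settings that leave an estimate as it was, namely the filters, the variance model and the term for the animals numbered 81 and 82. Quantile normalization and median centring moved the split of probe sets with an interaction p below 0.05 from 916 above and 631 below to 815 and 725, and 822 and 699. Averaged over all probe sets of the gene, the interaction was 0.71 for Gaa, 0.40 for Bmp1, 1.20 for Mybl2, -0.55 for Sbds, -0.28 for Socs5 and -0.37 for Rabgap1. The share of bounded probe sets was 75.7% with a pseudocount of 1 and 96.2% with 64, so the limits on dim genes follow the scale. No paired analysis was possible because the groups share no replicate numbers in the labels. A term for the animals numbered 81 and 82 left the interaction count at 0, with 1727 at an unadjusted p below 0.05.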

Other observations

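Circadian clock genes, whose transcripts cycle with the time of day, moved with SS control 3 and SS HTV 3, the arrays of the animals numbered 81 and 82. Of 16 measured, 3 rose in both strains, 6 were bounded and 0 had an interaction p below 0.05 or passed the limma test. Bmal1, the activator of the clock, was at 140, 144 and 35 in SS controls, 149, 149 and 43.6 in SS HTV lungs, 193, 111 and 134 in BN controls and 94.5, 102 and 84.8 in BN HTV lungs. These arrays were the lowest of their groups and of all 12, and the interaction was 0.65 (-0.67 to 1.96) on all arrays and 0.10 without SS control 3. Per3, a repressor of the clock, was at 56, 67.9 and 327 in SS controls and 72, 69.7 and 144 in SS HTV lungs, with an interaction of -0.74 and -0.03 without this array. For Npas2, a partner of Bmal1, it went from 0.60 to 0.18, and for Nr1d1, a nuclear receptor that represses Bmal1, from 0.36 to 1.06. The part of these arrays in other interactions is given by the values without them; no cause was tested.

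Of 17 heat shock and chaperone genes 16 were bounded (94.1%, against 88.2% of all genes). Their median change was -0.24 in SS and -0.12 in BN, and 5 of the 17 interactions were above 0 (29.4%, against 53.6% of all genes). An unadjusted interaction p below 0.05 was seen for 1 gene on the BN side and 1 on the SS side, Bag3, which moved against the list median. Bag3, a co-chaperone, rose in SS by 0.61 (limma adjusted p = 0.0102) and was at 0.11 in BN, with an interaction of 0.50 (0.12 to 0.88; unadjusted p = 0.0133). Of 18 Wnt pathway genes 14 were bounded (77.8%), a lower share than over all genes.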
